A study of Mus musculus with 8 samples.

Results

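The genes of the proteasome were described in mouse skin samples labelled Adam10 knockout and in wild-type samples. Adam10 is a membrane protease, and its transcript was lower but still measured in the knockouts. A gene was included when a probe set of the array carried exactly 1 gene symbol made of Psm, a letter from a to g and a number, and for a gene with several probe sets the brightest was used. This gave 48 of 19935 genes measured, from 54 probe sets. They were sorted by role into 8 alpha subunits, 4 structural and 3 constitutive catalytic beta subunits, 3 immunoproteasome subunits, 1 thymoproteasome subunit, 6 ATPases and 11 other subunits of the regulatory particle, 3 and 4 assembly chaperones, 4 activators and 1 further regulator.

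The 2 groups were Adam10 wildtype and Adam10 knockout, with 4 samples and 4 Affymetrix Mouse Gene 1.0 arrays each. The knockout titles read cKO, which the labels do not spell out, and the labels used here name neither a driver of the deletion, the cells that lost the gene, the strain, the sex nor the age. The titles carry a P and a number that the labels do not explain: wild-type arrays 1 to 4 have 57 to 60 and knockout arrays 1 to 4 have 67, 68, 69 and 55, so the numbers largely run in blocks by genotype. The samples are called both skin and primary skin cells. Nothing says that each array came from a separate animal, so p-values measure the spread between these samples, which may be technical. All values below are log2 of the authors' intensity, and a difference is the knockout mean minus the wild-type mean on that scale.

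Adam10 was at 7.39, 7.33, 7.06 and 7.34 in wild-type arrays 1 to 4 and at 6.85, 7.00, 7.04 and 6.79 in the knockouts. Every knockout value lay below every wild-type value, by a mean of 0.36 (22% lower, SE 0.11, adjusted p = 0.064 in limma, exact two-sided permutation p = 0.0286, the smallest that 70 assignments allow). Wild-type array 4 stood apart, at 61.18 on the first principal component against -24.91 to 17.52 on the other arrays, and its adipocyte, dermal fibroblast, skeletal muscle and endothelial markers lay 3.22, 3.13, 3.05 and 2.45 above their means over all arrays. Wild-type array 3 held smaller excesses of dermal fibroblast (1.23) and muscle (0.79) markers, and the tested proteasome results and the catalytic contrast were also computed without these 2 arrays. Keratinocyte markers were bright on all arrays, with Krt5 between 11.75 and 12.40.

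The proteasome is the protease complex that degrades proteins tagged with ubiquitin in the cytosol and nucleus. Its barrel-shaped core stacks alpha and beta rings, and its catalytic beta subunits Psmb5, Psmb6 and Psmb7 cut after hydrophobic, acidic and basic residues. In leukocytes, and in other cells under interferon, Psmb8, Psmb9 and Psmb10 take those places and form the immunoproteasome, which favours peptides for MHC class I. The regulatory particle binds ubiquitin, unfolds the substrate with its ATPases and feeds it into the core. The transcription factor Nfe2l1 raises the genes of the complex together when proteasome activity falls, through antioxidant response elements.

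The sequences before the transcription start are shown for the 3 immunoproteasome genes, for 2 of their constitutive counterparts and for the chaperone gene Psmd9, because these carry the contrast and the largest positive difference described below. They are the 250 bases 5′ of the start in RefSeq on GRCm38.p6, each read 5′ to 3′ on the strand of its gene, and capitals mark motif matches. No entry for Psmb7 was used here.
Psmb8, chr17:34197945-34198194, plus strand: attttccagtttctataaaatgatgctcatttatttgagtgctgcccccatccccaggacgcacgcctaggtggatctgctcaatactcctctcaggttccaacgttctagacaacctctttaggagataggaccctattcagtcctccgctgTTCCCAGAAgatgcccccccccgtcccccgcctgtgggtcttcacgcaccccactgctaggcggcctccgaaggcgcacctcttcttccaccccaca
Psmb9, chr17:34187331-34187580, minus strand: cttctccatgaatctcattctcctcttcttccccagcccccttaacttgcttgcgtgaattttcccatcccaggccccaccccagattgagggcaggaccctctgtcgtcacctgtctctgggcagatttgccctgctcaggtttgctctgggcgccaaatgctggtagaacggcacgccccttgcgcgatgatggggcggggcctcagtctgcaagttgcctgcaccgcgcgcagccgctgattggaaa
Psmb10, chr8:105938393-105938642, minus strand: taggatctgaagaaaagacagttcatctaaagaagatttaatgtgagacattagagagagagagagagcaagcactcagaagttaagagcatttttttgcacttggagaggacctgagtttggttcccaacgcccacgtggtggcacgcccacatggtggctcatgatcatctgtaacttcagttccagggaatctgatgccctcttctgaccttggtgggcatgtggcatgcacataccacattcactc
Psmb5, chr14:54617996-54618245, minus strand: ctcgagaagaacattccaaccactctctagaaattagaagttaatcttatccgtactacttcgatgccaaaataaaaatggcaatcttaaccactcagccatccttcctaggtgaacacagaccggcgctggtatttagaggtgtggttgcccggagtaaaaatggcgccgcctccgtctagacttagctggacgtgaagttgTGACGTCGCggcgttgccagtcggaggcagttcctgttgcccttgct
Psmb6, chr11:70525107-70525356, plus strand: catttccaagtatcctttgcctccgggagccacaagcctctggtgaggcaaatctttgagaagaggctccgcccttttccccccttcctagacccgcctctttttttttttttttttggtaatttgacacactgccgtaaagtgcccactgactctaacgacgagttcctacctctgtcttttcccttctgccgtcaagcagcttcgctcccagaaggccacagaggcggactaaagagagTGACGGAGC
Psmd9, chr5:123227940-123228189, plus strand: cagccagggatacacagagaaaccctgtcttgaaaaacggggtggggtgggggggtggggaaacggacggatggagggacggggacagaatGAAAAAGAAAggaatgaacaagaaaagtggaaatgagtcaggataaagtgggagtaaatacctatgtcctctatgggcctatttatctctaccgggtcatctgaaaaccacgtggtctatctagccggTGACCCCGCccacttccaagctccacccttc
The capitals in Psmb5, Psmb6 and near the start of Psmd9 match TGACNNNGC, the core of the antioxidant response element. Those further upstream in Psmd9 match GAAA, any 2 bases and GAAA, an interferon response element, and those in Psmb8 match TTCNNNGAA, a STAT element that reads alike on both strands. Windows of 300 bases (250 before and 50 after the start) were searched on both strands for 40 of the 48 genes, and the motifs were allowed to overlap. TGACNNNGC was in the windows of 6 of the 40 genes (15%) and of 14% of 27025 genes with a window. The interferon response element was in 5 (12.5%), against 3.99% of all, and TTCNNNGAA in 3 (7.5%), against 9.55%. An NF-kB element, GGGA, any 4 bases and CC, was in 9 (22.5%), against 22.9%. Of the 3 immunoproteasome genes, Psmb8 held the STAT match, and the windows of Psmb9 and Psmb10 held none of the 4 motifs. The 6 genes with TGACNNNGC had a median difference of 0.11 and the other 34 a median of 0.077.

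Proteasome genes differed little between the genotypes. Of 48 genes, 0 passed an adjusted p of 0.05 in limma, while 8.75% of all genes did (6.41% higher and 2.34% lower in the knockout). At an unadjusted p under 0.05, 7 genes were higher and 3 lower, which is 20.8% of the 48, against 25.1% of all genes (16.3% higher and 8.8% lower) and 37.5% of the brighter genes, those with a mean level no lower than the median gene. Of those brighter genes 15.2% passed the adjusted threshold, and 12% were higher in the knockout. The median difference was 0.068 for the 48 genes, 0.0027 for all genes and 0.11 for the brighter genes. The difference was above 0 for 33 of the 48 genes (68.8%), against 50.4% of all genes and 65.4% of the brighter genes, and for 19 after quantile normalization and 16 after cyclic loess. The differences ran from -0.44 in Psmb9 to 0.34 in Psmd9. For 43 of the 48 genes the 95% interval of the difference stayed within 1.5-fold either way, which held for 71.7% of all genes and for 65% of the brighter genes. The other 5 genes were Psmb8, Psmb9, Psmb10, Psma2 and Psma8. The array-by-array map shows these small differences beside the immunoproteasome rows, where the colours are deeper.

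**Figure D1:**
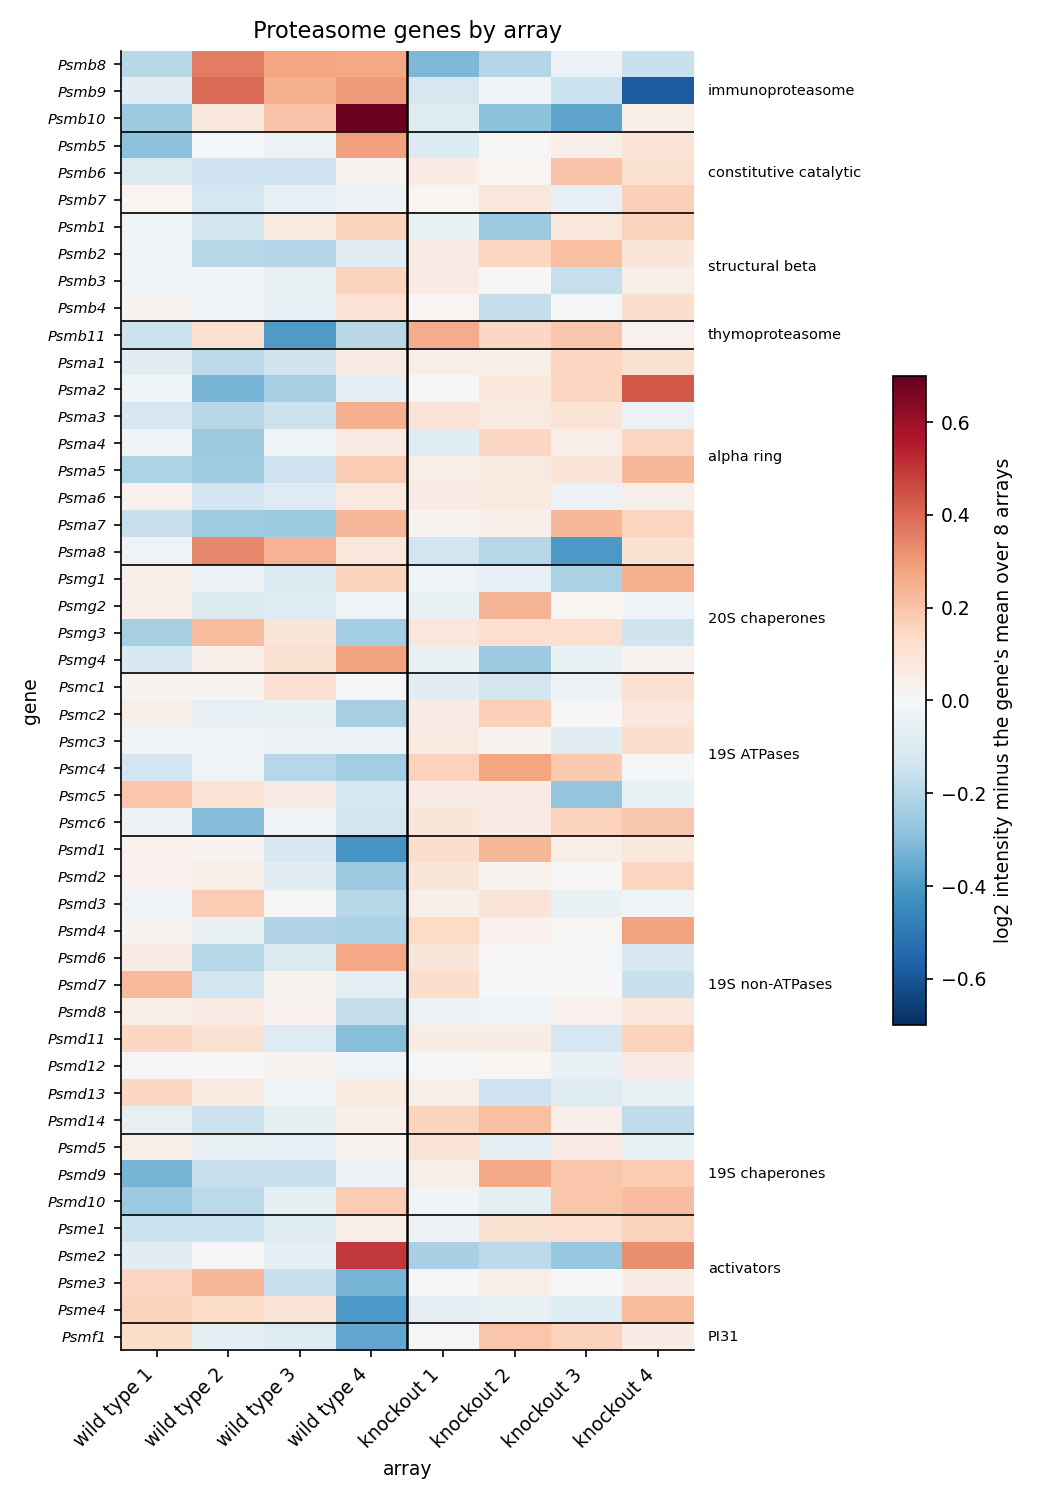
Log2 intensity of 48 proteasome genes (rows, grouped by role) on 4 wild-type and 4 knockout arrays (columns), each minus the mean of that gene over the 8 arrays. The top 3 rows, the immunoproteasome genes, are red on wild-type arrays 2 to 4 and mostly blue elsewhere, while most other rows stay pale.

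Immunoproteasome genes had lower means in the knockout skin, all 3 by about the same amount, and none passed the threshold. Psmb8, which replaces Psmb5 in the immunoproteasome, was at 3.59, 4.14, 4.06 and 4.06 in wild-type arrays 1 to 4 and at 3.47, 3.58, 3.74 and 3.63 in the knockouts. Wild-type array 1 lay among the knockout values, and the other 3 wild-type arrays lay above all of them. The difference was -0.36 (95% interval -0.65 to -0.06, adjusted p = 0.13 in limma), or 1.28-fold. Psmb8 was dim, whether it lay above background was not tested, and with log2 of the value plus 16 its difference was -0.17. Psmb9, which replaces Psmb6 and lies beside the peptide transporter gene Tap1, was at 5.42, 5.89, 5.74 and 5.79 in wild type and at 5.37, 5.47, 5.34 and 4.91 in the knockouts. Here too wild-type array 1 fell within the knockout range, and knockout array 4 was lowest. The difference was -0.44 (95% interval -0.76 to -0.11, adjusted p = 0.095), or 1.35-fold. Psmb10, which replaces Psmb7, was at 4.39, 4.72, 4.85 and 5.34 in wild type and at 4.56, 4.36, 4.28 and 4.69 in the knockouts. These groups overlapped more, and wild-type array 4 was far above the rest. The difference was -0.35 (95% interval -0.76 to 0.06, adjusted p = 0.26). Without wild-type array 1, Psmb8 and Psmb9 passed (-0.48, adjusted p = 0.023, and -0.53, adjusted p = 0.047), and they passed under none of the other 15 refits at a threshold of 0.05. Without wild-type arrays 3 and 4 the differences were -0.26 for Psmb8, -0.38 for Psmb9 and -0.08 for Psmb10. With wild-type array 4 alone left out, that of Psmb10 was -0.18, and with log2 of the value plus 16 it was -0.22.

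The constitutive counterparts did not share that direction. Psmb5, the chymotrypsin-like subunit, was at 7.13, 7.41, 7.38 and 7.71 in wild type and at 7.33, 7.43, 7.46 and 7.51 in the knockouts. The knockout values lay inside the wild-type range, and the difference was 0.026 (95% interval -0.25 to 0.30). Psmb6, the caspase-like subunit, was at 8.49, 8.45, 8.45 and 8.61 in wild type and at 8.65, 8.61, 8.79 and 8.70 in the knockouts. The groups overlapped narrowly, since knockout array 2 lay just under wild-type array 4, and the difference was 0.19 (95% interval -0.01 to 0.38, adjusted p = 0.22). Psmb7, the trypsin-like subunit, was at 8.77, 8.63, 8.70 and 8.72 in wild type and at 8.77, 8.84, 8.70 and 8.92 in the knockouts, a difference of 0.10 (95% interval -0.10 to 0.30). After quantile or cyclic loess normalization the differences of Psmb5 and Psmb7 were below 0.

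**Figure D2:**
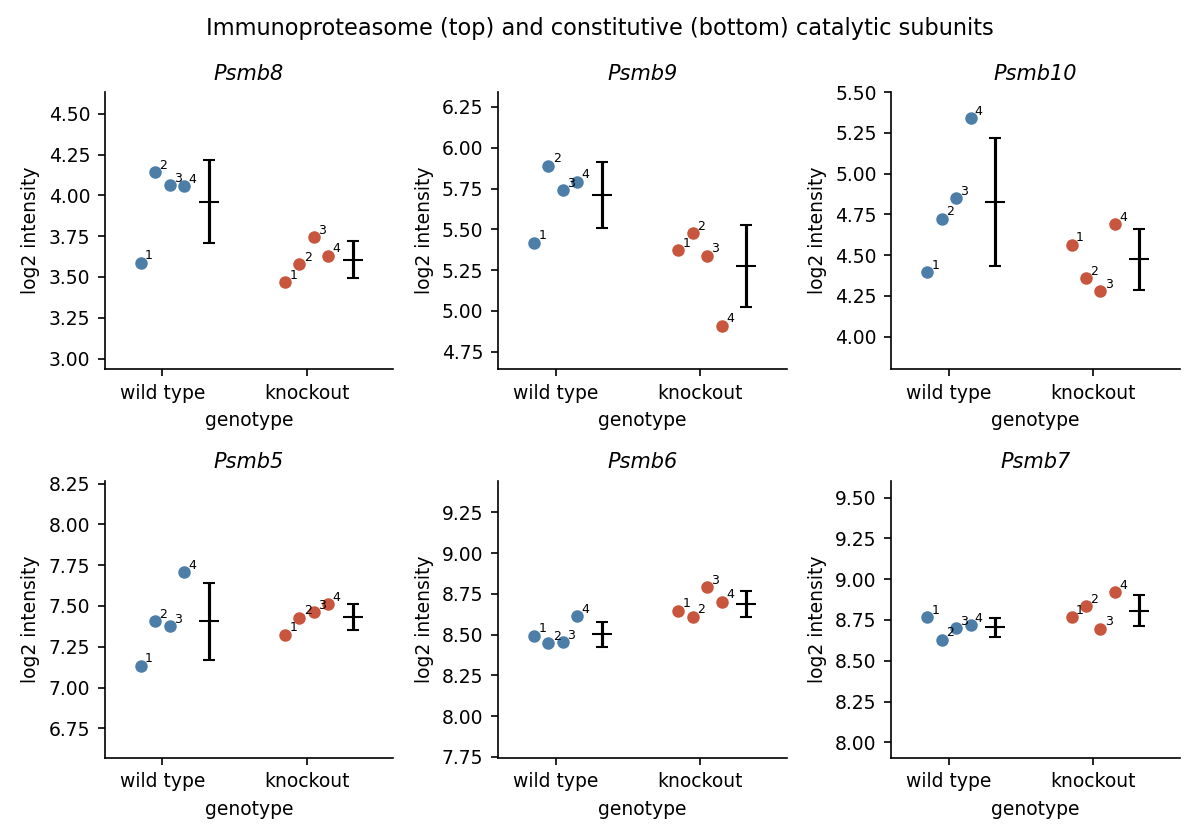
Log2 intensity of the immunoproteasome genes (top) and their constitutive counterparts (bottom) by genotype; each point is 1 array with its number, and the bar gives the mean and SD of 4 arrays. The vertical axes span the same width on the log2 scale. Wild-type array 1 sits at the level of the knockouts for Psmb8 and Psmb9.

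Set against each other within an array, the immunoproteasome genes were lower relative to the constitutive catalytic genes in every knockout. Each gene was first centred on its mean over the 8 arrays, and the mean of Psmb5, Psmb6 and Psmb7 was taken from that of Psmb8, Psmb9 and Psmb10. The result was -0.05, 0.37, 0.32 and 0.33 in wild-type arrays 1 to 4 and -0.16, -0.20, -0.25 and -0.35 in the knockouts. The groups did not overlap, although wild-type array 1 lay nearer to the knockouts than to the other wild-type arrays. The wild-type mean was 0.24 ± 0.20 and the knockout mean -0.24 ± 0.08 (SD over 4 arrays each), which differ by -0.49, or 1.40-fold. It is a value over chosen genes and was given no test. It stayed below 0 under all 16 alternatives that give it, from -0.58 without wild-type array 1 to -0.34 for log2 of the value plus 16. Of these, 4 cannot change such a difference (median centring, the filter on dim genes, the mean of probe sets and another prior). Leaving out arrays could change its size and not its sign, because the groups did not overlap, and it was -0.40 without wild-type arrays 3 and 4. The sign could have turned only with quantile normalization (-0.38), cyclic loess (-0.35) and log2 of the value plus 16.

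The pairs that exchange places in the core behaved alike in sign and not in overlap. For Psmb8 minus Psmb5 the centred values were -0.02 to 0.37 in wild type and -0.25 to -0.08 in knockout, with no overlap and a difference of -0.38. For Psmb9 minus Psmb6 they were 0.03 to 0.54 and -0.69 to -0.03, also with no overlap, and the difference was the largest of the pairs, at -0.62. For Psmb10 minus Psmb7 they were -0.27 to 0.72 and -0.37 to -0.10, which overlapped, with a difference of -0.45. Among single genes 18.1% had no overlap in either direction, and no such share was computed for differences between genes. Against the 43 genes that remain after the immunoproteasome, Psmb11 and Psma8 are taken out, the 3 immunoproteasome genes gave a difference of -0.47. The immunoproteasome genes alone had a mean difference of -0.38, and the constitutive catalytic genes one of 0.10.

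Leukocyte markers also separated the genotypes, and within a genotype their order over the arrays matched that of the contrast only in part. All 6 general leukocyte markers measured (Ptprc, Cd52, Coro1a, Laptm5, Lcp1 and Cd53) were lower in the knockout past the adjusted threshold, with a median of -0.82. Of all genes 2.34% were lower and 6.41% higher past that threshold. Ptprc, the CD45 antigen, changed by -0.88 (SE 0.12, adjusted p = 0.0035 in limma). The centred mean of the list was 0.31 to 0.60 on wild-type arrays and -0.62 to -0.25 on knockout arrays. All 9 macrophage and monocyte markers had a difference below 0, 5 of them past the adjusted threshold and 8 at an unadjusted p under 0.05. Their median was -1.04, and their centred mean was 0.29 to 1.12 in wild type and -0.72 to -0.35 in knockout. Of 9 T and NK cell markers 0 passed (0 also at an unadjusted p under 0.05), and their centred means were -0.09 to 0.06 and -0.14 to 0.06. Several were dim: Klrb1c, Gzma and Cd4 had both group means below 2.95, the 25th percentile of all gene means. The brightest, Cd5, had means of 4.81 in wild type and 5.07 in knockout. Of 7 dendritic and Langerhans cell markers 1 passed, H2-Ab1, a class II chain, which was higher by 1.38. The median of that list was 0.66, and its centred mean was -0.40 to -0.18 in wild type and -0.19 to 0.66 in knockout. The other class II genes H2-Aa, Cd74 and H2-Eb1 differed by 1.54, 0.92 and 0.66 without passing, and Cd207, Itgax and Flt3 by -0.042, 0.0077 and -0.16. Cd207 (means 2.73 and 2.69) and Itgax (2.71 and 2.72) also lay below the 25th percentile. Whether such dim markers lay above background was not tested. On wild-type array 1, where the immunoproteasome genes were low, the leukocyte list was at 0.39, as on wild-type arrays 2 (0.37) and 3 (0.31). Knockout array 4 had the lowest contrast, with the leukocyte list at -0.26, close to the highest knockout value. That highest value (-0.25) was on knockout array 1, which also had the highest contrast of the knockouts (-0.16). All 7 basal keratinocyte markers had a difference above 0, 6 of them past the adjusted threshold, with a median of 0.63. Medians were -1.84 for 6 dermal fibroblast, -1.83 for 8 skeletal muscle, -1.01 for 5 endothelial and -0.99 for 6 adipocyte markers, of which 0 passed in limma. At an unadjusted p under 0.05, 2 dermal fibroblast markers (Col1a1 and Col3a1) and 1 muscle marker (Acta1) were lower. The fibroblast marker Dcn went the other way (0.48). The fibroblast, muscle, endothelial and adipocyte lists were highest on wild-type array 4, where the immunoproteasome mean (0.42) was highest too. The leukocyte list (0.60) and the macrophage and monocyte list (1.12) were also highest on that array. The part of these cell types in the immunoproteasome values was not tested. In bulk samples such as these, fewer cells of a type and less RNA per cell cannot be told apart.

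**Figure D3:**
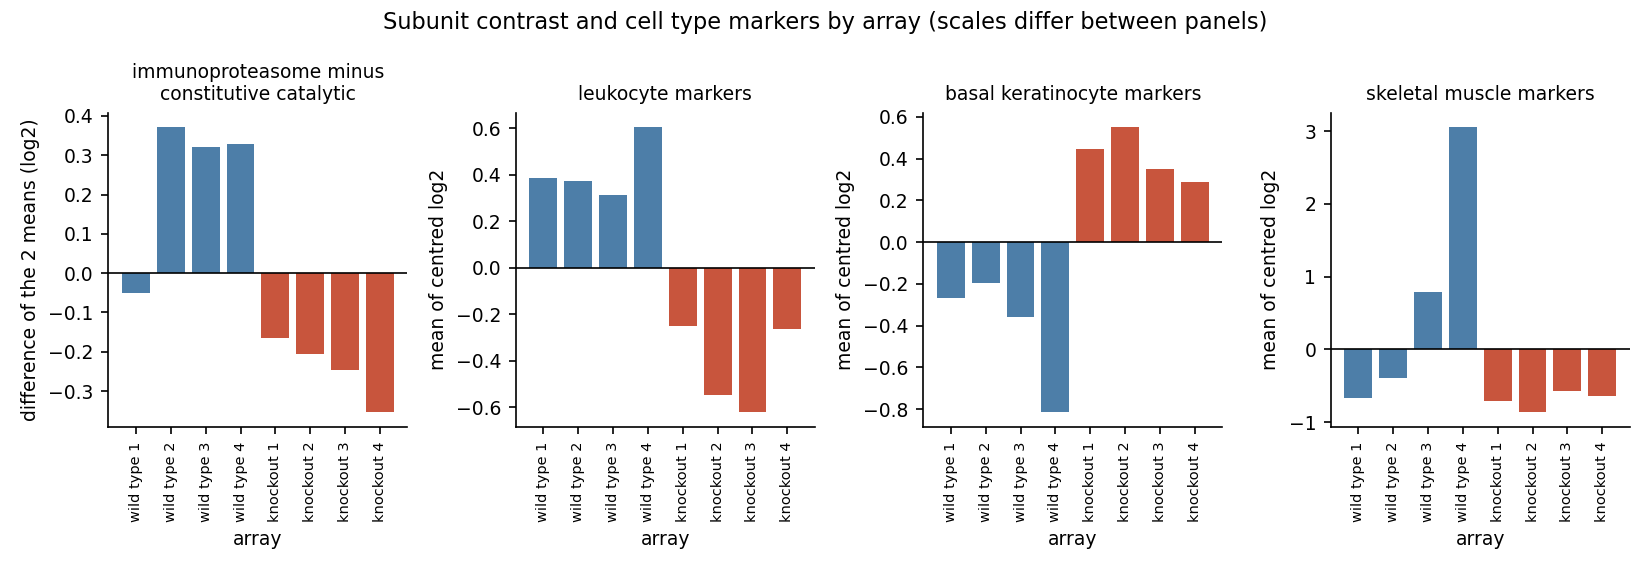
Mean centred log2 of the immunoproteasome genes minus that of the constitutive catalytic genes (left), and mean centred log2 of 6 leukocyte, 7 basal keratinocyte and 8 skeletal muscle markers, 1 bar per array. The contrast ran from -0.05 to 0.37 in wild type and from -0.35 to -0.16 in knockout, and leukocyte markers separated the genotypes while muscle markers were high on wild-type arrays 3 and 4.

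Interferon raises immunoproteasome genes together with other genes of antigen processing, and those were examined as lists drawn up by function. Of 14 interferon pathway and response genes measured (of 17 listed) 0 passed in limma, with 1 higher at an unadjusted p under 0.05, and the median difference was -0.02. The gene with the smallest p was Ifngr1, a chain of the interferon gamma receptor, at 7.73, 7.21, 7.42 and 7.07 in wild type and 8.03, 8.07, 7.33 and 7.69 in knockout (0.42, adjusted p = 0.20). Ifng itself was dim on all arrays, between 2.06 and 2.75. Of 10 genes of MHC class I antigen processing (of 12 listed) 0 passed, with 1 higher and 2 lower at an unadjusted p under 0.05, and the median was -0.20. The class I chains H2-K1 and H2-D1 were listed and not measured. Of all genes 16.3% were higher and 8.8% lower at that unadjusted p. The 2 lower genes were Tapbp (-0.27) and Calr, and the higher one was Erap1 (0.28). Of the 10 differences 3 were above 0, against 50.4% of all genes. The smallest p was that of Calr, a chaperone of class I loading. It was at 8.92, 9.07, 8.99 and 8.98 in wild type and at 8.58, 8.76, 8.76 and 8.90 in knockout, with every knockout array below the wild-type arrays (-0.24, adjusted p = 0.15), and it passed after cyclic loess normalization (adjusted p = 0.047). Tap1, beside Psmb9 in the genome, changed by -0.18 with an interval of -0.52 to 0.15.

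Activator genes that respond to interferon showed no common direction. Psme1 and Psme2 encode the alpha and beta chains of PA28, a ring that opens the core for peptide production. Psme1 differed by 0.17 (95% interval -0.03 to 0.38). Psme2 was at 6.87, 6.95, 6.88 and 7.45 in wild type and at 6.72, 6.77, 6.68 and 7.28 in knockout. In each group array 4 stood well above the other 3 arrays, and apart from it the knockout values were the lower ones. The difference was -0.18 (95% interval -0.55 to 0.20, adjusted p = 0.56). Leaving out wild-type array 4 gave -0.040, and leaving out knockout array 3 or 4 gave -0.12 or -0.31. Psme3, the nuclear PA28 gamma, and Psme4, the PA200 activator, differed by 0.05 and 0.01, and both were lowest on wild-type array 4. Psmf1, the regulator PI31, was at 6.23, 6.03, 6.01 and 5.73 in wild type and at 6.09, 6.29, 6.26 and 6.15 in knockout, a difference of 0.20 (95% interval -0.06 to 0.46) that was 0.11 without wild-type array 4.

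The alpha ring, which gates entry to the core, had a median difference of 0.15 over 8 genes, 7 of them above 0. Psma2 differed most, at 7.26, 6.96, 7.06 and 7.22 in wild type and at 7.29, 7.36, 7.44 and 7.72 in the knockouts. All knockout values lay above all wild-type values, narrowly so for wild-type array 1 and knockout array 1. The difference was 0.33 (95% interval 0.06 to 0.59, adjusted p = 0.12 in limma). Psma1, Psma3, Psma4, Psma5, Psma6 and Psma7 differed by 0.06 to 0.22, each with an interval that included 0. Psma8, an alpha subunit of the testis, was dim on all arrays (1.82 to 2.55, where the 25th percentile of all gene means was 2.95) and differed by -0.32.

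Of the structural beta genes, Psmb2 was the one apart from 0. It was at 8.11, 7.94, 7.93 and 8.07 in wild type and at 8.20, 8.29, 8.35 and 8.22 in the knockouts. The groups did not overlap, and the difference was 0.25 (95% interval 0.05 to 0.45, adjusted p = 0.11). Psmb1, Psmb3 and Psmb4 differed by -0.03 to -0.02. Psmb11, the catalytic subunit of thymic epithelium, was dim, near the 25th percentile of all gene means, 2.95. It was at 2.91, 3.17, 2.66 and 2.86 in wild type and 3.32, 3.20, 3.26 and 3.09 in knockout, a difference of 0.31 (adjusted p = 0.13 in limma). With log2 of the value plus 16 the difference was 0.11 (limma adjusted p = 0.15). Without wild-type arrays 3 and 4 it was 0.17 (limma adjusted p = 0.50).

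The ATPases, which form the unfolding ring of the regulatory particle, were higher in 4 of 6 cases, with a median difference of 0.11. Psmc4 was at 7.49, 7.59, 7.43 and 7.38 in wild type and at 7.78, 7.90, 7.81 and 7.61 in the knockouts. The knockouts all lay above, though array 4 by little, and the difference was 0.30 (95% interval 0.09 to 0.52, adjusted p = 0.083). Psmc6 also had no overlap and differed by 0.24 (95% interval 0.03 to 0.46). Psmc2 and Psmc3 differed by 0.15 and 0.07, and Psmc1 and Psmc5 by -0.07 and -0.11.

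The 11 non-ATPase subunits were the steadiest large group, with a median difference of 0.03 and a range of -0.12 to 0.23. Psmd1, a scaffold of the base, was at 8.55, 8.54, 8.41 and 8.11 in wild type and at 8.64, 8.75, 8.56 and 8.60 in the knockouts. The groups just failed to overlap, wild-type array 4 was lowest, and the difference was 0.23 (95% interval -0.02 to 0.49, adjusted p = 0.24). Without wild-type array 4 it was 0.14. Psmd4, a ubiquitin receptor, differed by 0.23 with an interval from 0.0039 to 0.46. Psmd14, the enzyme that removes ubiquitin from substrates, differed by 0.12, and Psmd2, another scaffold of the base, by 0.13. Psmd13 lay lowest, at -0.12. Psmd12, a lid subunit, had the narrowest range of the 48 genes, with values of 7.71 to 7.81 over the 8 arrays and a difference of 0.0046 (95% interval -0.17 to 0.18).

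Among the assembly chaperones, Psmd9 came closest to the threshold of all 48 genes. It helps the base of the regulatory particle to form. Its values were 6.01, 6.17, 6.18 and 6.29 in wild type and 6.38, 6.60, 6.53 and 6.51 in the knockouts. Every knockout array was above every wild-type array, and the difference was 0.34 (95% interval 0.13 to 0.56, adjusted p = 0.055 in limma), or 1.27-fold. It passed under 5 of 16 alternatives, among them without wild-type array 4 (0.38, adjusted p = 0.037), and its adjusted p reached 0.31 at most. The other base chaperones Psmd5 and Psmd10 differed by 0.02 and 0.16. Of the core chaperones Psmg1 to Psmg4, which pair and guide alpha subunits, Psmg4 differed most. It was at 4.32, 4.46, 4.53 and 4.71 in wild type and at 4.38, 4.17, 4.38 and 4.45 in knockout, overlapping ranges with a difference of -0.16 (95% interval -0.40 to 0.08). Leaving out wild-type array 4 gave -0.093, and leaving out knockout array 2 gave -0.10. The other core chaperones differed by -0.03 to 0.09.

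**Figure D4:**
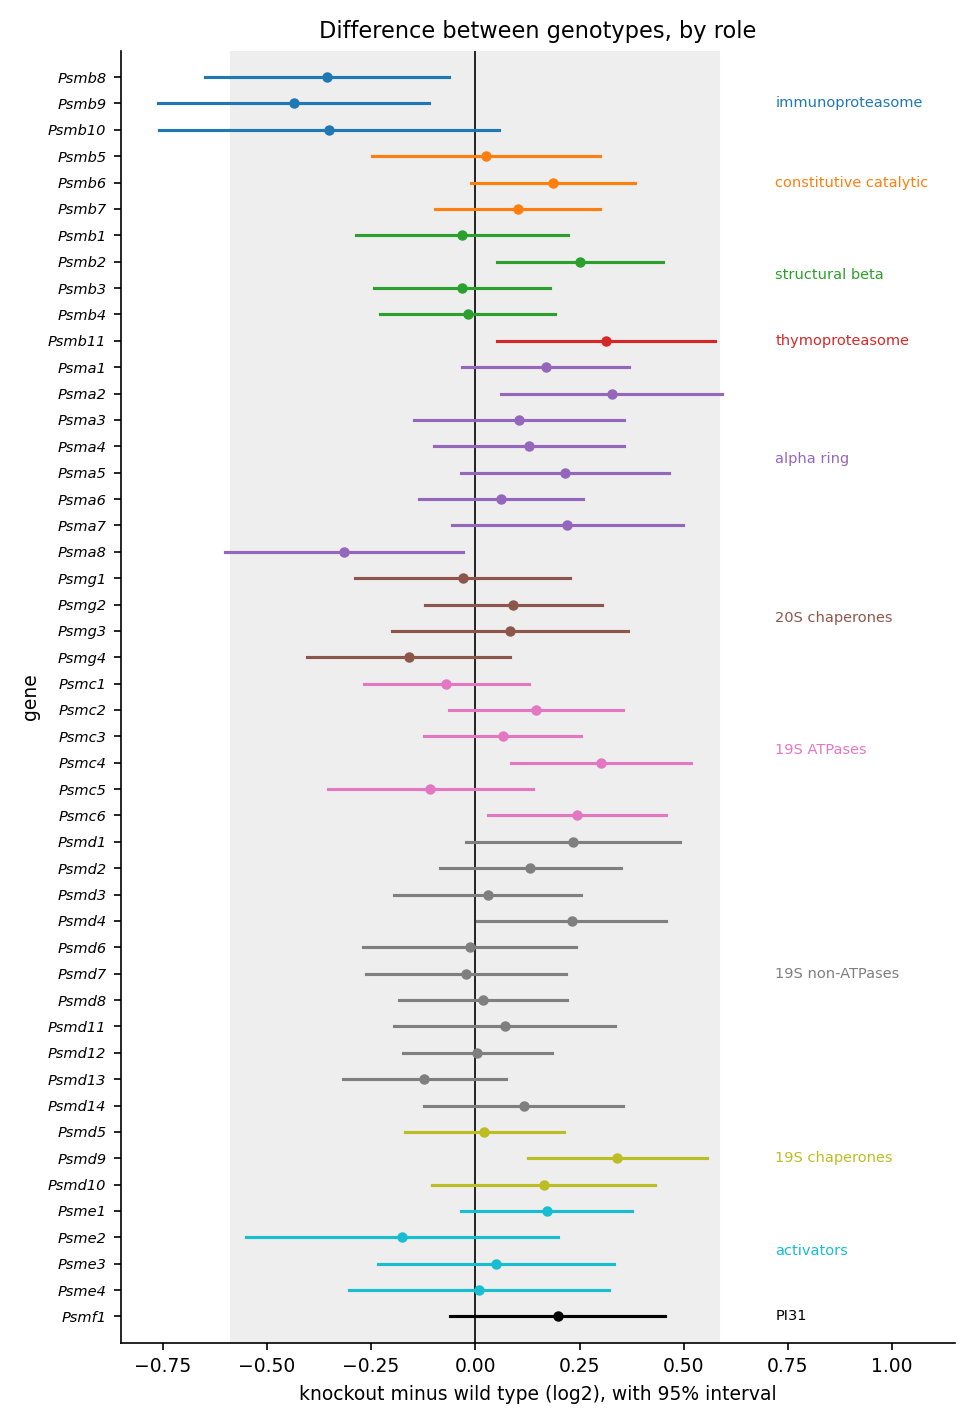
Difference in mean log2 intensity, knockout less wild type, for 48 proteasome genes, with the 95% interval from limma, coloured and ordered by role; the grey band marks 1.5-fold either way. The 3 immunoproteasome genes lie furthest to the left, at -0.44 to -0.35, and the intervals of 43 genes stay within the band.

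Groups without overlap were counted as well. In 6 genes, Psma2, Psmb2, Psmc4, Psmc6, Psmd1 and Psmd9, all knockout arrays lay above all wild-type arrays, which is 12.5%, against 12.2% of all genes and 22.3% of the brighter genes. In 0 genes did all knockout arrays lie below, against 5.86%, and in either direction 18.1% of all genes had no overlap. Differences also depended on how arrays were scaled. The median over the 48 genes was 0.11 after median centring (39 genes above 0), -0.042 after quantile normalization and -0.086 after cyclic loess, while that of all genes ran from -0.0096 to 0.049. After quantile normalization and cyclic loess, Psma2 differed by 0.20 and 0.17, Psmb2 by 0.14 and 0.097, and Psmc4 by 0.18 and 0.14. Psmd9 differed by 0.22 and 0.19, Psmd1 by 0.12 and 0.085, Psmb6 by 0.078 and 0.039, Psmf1 by 0.078 and 0.058, and Psme2 by -0.29 and -0.33.

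Genes that serve the proteasome without carrying its name were drawn from 2 further lists. Of 10 partners measured 1 passed, upward, a share near the 8.75% of all genes and 15.2% of brighter genes that passed. The list held 14 symbols, with older names of Sem1 and Ecpas among them. Ube3c, a ubiquitin ligase that works on the proteasome, was at 7.01, 6.81, 6.85 and 6.77 in wild type and at 7.15, 7.26, 7.21 and 7.20 in the knockouts, a rise of 0.34 (SE 0.09, adjusted p = 0.043 in limma). Refits that left out 1 array each gave an adjusted p above 0.05 in 7 of 8 cases, as did quantile and cyclic loess normalization and the fit without wild-type arrays 3 and 4. Nfe2l1, the factor described above, differed by -0.01 (95% interval -0.23 to 0.21), and Pomp, the maturation factor of the core, by 0.14. Ecpas, which clamps core and regulatory particle together, was lower on every knockout array (-0.38) and missed the threshold at an adjusted p of 0.076.

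Of 9 genes of ubiquitin supply and delivery measured 2 passed upward and 0 downward, where 6.41% of all genes and 12% of brighter genes passed upward. The list held 16 symbols, with an older name of Ufd1 among them. Ufd1, a cofactor of the segregase Vcp, which pulls tagged proteins from membranes and complexes, was at 7.25, 6.95, 7.01 and 6.96 in wild type and at 7.56, 7.68, 7.57 and 7.48 in the knockouts. All knockouts lay above, and the rise was 0.53 (SE 0.10, adjusted p = 0.012), 1.44-fold. Sqstm1, a receptor that hands ubiquitin-tagged cargo to autophagy, was at 7.91, 7.86, 7.91 and 8.07 in wild type and at 8.33, 8.58, 8.45 and 8.33 in the knockouts, a rise of 0.49 (SE 0.10, adjusted p = 0.015). Ufd1 missed the threshold without knockout array 2 (limma adjusted p of 0.053) and without wild-type arrays 3 and 4 (0.072). Sqstm1 missed it without knockout array 2 (0.058), without wild-type array 3 (0.051) and after cyclic loess normalization (0.090). Vcp itself differed by 0.12 and did not pass.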

How the data were processed

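Total RNA of 4 wild-type and 4 Adam10 knockout skin samples was hybridised to Affymetrix Mouse Gene 1.0 arrays. The authors deposited an RMA intensity for each probe set, per the submitters' processing notes. This method usually subtracts background, equalises the distributions of the arrays and combines probes. The deposited arrays were not fully equalised: their medians ran from 13.3 to 15.1, and equalising them again moved small shifts shared by many genes. RMA's version and settings were not given in the sources used here, nor was a build. Values ran from 0.817 to 11173 and were read as linear intensity, and log2 was taken without a pseudocount and with no filter.

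Of 35519 probe sets 21780 had exactly 1 gene symbol. The symbols of all 48 proteasome genes matched RefSeq (GRCm38.p6) by Entrez identifier. Genotypes were compared with limma 3.58.1 (R 4.3.3; lmFit, eBayes, two-sided) across 19935 genes with Benjamini-Hochberg adjustment and a threshold of 0.05. The fit was tested on simulated data. The genes described, the lists and the rule for naming genes (the 6 catalytic genes, genes that passed, the largest difference in each role, and from each list up to 3 genes that rose and 3 that fell, or the smallest p) were chosen with earlier results of these data known. Psma8, Psmd12 and other genes named beyond that rule were picked with their values in view. Alternatives tried were quantile, cyclic loess and median scaling, a filter at the 25th percentile, the mean of probe sets, log2 of the value plus 16, a trended robust prior, a threshold of 0.10, and leaving out wild-type arrays 3 and 4 or each array in turn. Arrays give no depth, and their number limits the precision. Detection calls and scan batches were not used here.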

Additional observations from a re-analysis of the deposited data

Results flagged for a closer look

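In 100 groups of 4 arrays examined, 10 held an array whose gap to the others took up more of the range than the Dixon 95% critical value allows. For independent groups chance gives about 1 in 20. These groups reuse the same 8 arrays, and the contrast contains Psmb8, so whether 10 is more than chance gives cannot be told. Wild-type array 1 was low in Psmb8 (3.59, others 4.06 to 4.14) and in the immunoproteasome minus constitutive contrast (-0.051, others 0.32 to 0.37). Wild-type array 4 was high in Psmb3 (8.53, others 8.32 to 8.36) and Psme2 (7.45, others 6.87 to 6.95), and low in Psmd8 (8.53, others 8.73 to 8.76) and Psme4 (7.08, others 7.58 to 7.65). Knockout array 4 was high in Psme2 (7.28, others 6.68 to 6.77) and Psme4 (7.71, others 7.40 to 7.43), and low in Psmg3 (4.41, others 4.63 to 4.67). Wild-type array 3 was low in Adam10 (7.06, others 7.33 to 7.39). The cause of these values was not tested.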

How the results depend on the processing

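The contrast of immunoproteasome and constitutive catalytic genes kept its sign under all 16 alternatives run (-0.58 to -0.34), 4 of which cannot change it. Leaving out arrays could not turn its sign either, since the groups did not overlap. That left quantile normalization (-0.38), cyclic loess (-0.35) and log2 of the value plus 16 (-0.34) as the alternatives that could. Psmb8, Psmb9 and Psmb10 each stayed below 0. The count of proteasome genes higher in the knockout, 0 as reported, was 1 (Psmd9) after median centring, with the filter at the 25th percentile and with the trended robust prior. It was 3 (Psmb2, Psmc4 and Psmd9) for log2 of the value plus 16, 2 at a threshold of 0.10 and 0 to 1 with 1 array left out. The count of lower genes was 1 (Psmb9) at a threshold of 0.10 and 0 to 2 with 1 array left out. The median of the 48 genes turned to -0.042 after quantile normalization and -0.086 after cyclic loess. Psmb5 turned to -0.090 and -0.13 under these 2 and ran from -0.064 (without wild-type array 1) to 0.13 (without wild-type array 4) with 1 array left out, -0.00088 without knockout array 4 among them, and Psmb7 turned to -0.0057 and -0.044 under the 2 normalizations. Adam10 passed after quantile normalization (-0.49), cyclic loess (-0.52), the filter (-0.36), log2 of the value plus 16 (-0.32) and the trended robust prior (-0.36). Over all genes 1744 passed, 925 without wild-type arrays 3 and 4, 2958 at 0.10 and 587 to 1997 with 1 array left out, and the share of higher genes was 73.2%, 56.5% after quantile normalization and 50.8% after cyclic loess. The cause of these changes was not tested. No paired analysis was possible because the labels give the groups no shared replicate numbers. The arrays carry no detection calls here, so whether dim genes such as Psma8, Psmb11 and Psmb8 lay above background was not tested.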

Other observations

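For 5 genes, Psma3, Psma5, Psmb3, Psmc1 and Psmd2, the array held more than 1 probe set named for the gene. The differences of the probe sets of 1 gene stood within 0.06 of each other: 0.10, 0.09 and 0.12 for Psma3, 0.22 and 0.18 for Psma5, -0.03 and 0.0083 for Psmb3, -0.07 and -0.13 for Psmc1 and 0.13 and 0.11 for Psmd2. A probe set shared by Psme2 and Psme2b, and so outside the 48 genes, had a wild-type mean of 5.37 ± 0.27 and a knockout mean of 5.30 ± 0.19 (SD over 4 arrays each), which differ by -0.063.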
